A study of Mus musculus with 59 samples.

Results

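The livers of mice given one injection of dexamethasone together with sodium arsenite were compared with those of mice injected with saline. The comparison used the arrays whose titles name the combined injection (5 arrays) or the saline injection (5 arrays), 10 of the 59 arrays of the series, and every one of the 45037 probe sets that is not a control. The 10 mice were male C57BL/6 on the AIN-76A diet, 6 weeks old when they began 2 weeks on it, and liver was taken 8 hours after an intraperitoneal injection in normal saline. The combined group received 1 mg/kg dexamethasone and 1 mg/kg arsenite, given as its sodium salt, and the saline group neither agent. Dexamethasone alone and arsenite alone, each at the same dose in 5 further mice of the same strain, diet and hour, are used below where they show what the second agent adds. RNA came from whole frozen liver, and the labels call the arrays of a group biological replicates, so each p-value measures the spread between these animals.

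Dexamethasone is a synthetic glucocorticoid. It binds the glucocorticoid receptor, which then enters the nucleus and raises some genes and lowers others. In liver the hormone is known for raising the enzymes of glucose production and amino acid breakdown and for restraining inflammatory and interferon-driven genes. Trivalent arsenite binds protein thiols and is known for activating the stress pathways of Nrf2, of heat shock factor and of the metallothioneins, and it can alter transcription by the glucocorticoid receptor in cultured cells. The series asked about both agents in the same experiment, and the combined group is where they meet.

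Levels are RMA values on a log2 scale, so a difference of 1 is a doubling. They ran from 1.17 to 14.2 over the series, with array medians between 2.42 and 2.59, and a level near 2 to 3 is therefore no brighter than most probe sets of the array. No detection calls were used. Upper quartiles of the injection arrays lay between 3.85 and 4.26. On the first component of the within-group deviations, which held 27.4% of their variance, the lowest scores were those of saline F (-14.2), dexamethasone C (-22.9), arsenite D (-28.7) and combined E (-22.1). The next lowest scores of those groups were -7.99, 1.75, -0.987 and 1.42, so saline F lay closer to the rest of its group than the others did. Without these 4 arrays 434 probe sets were called between combined and saline, 276 of them shared with the fit of all arrays, and the list counts that change are given below. Hepatocyte markers were bright on the arrays compared. The summed linear level of 10 of them was 76100 to 84900 in saline and 78200 to 84500 in the combined group. Albumin (Alb) averaged 13.70 and 13.73. Such sums add different probe sets, so they give no share of a cell type.

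Combined treatment changed 417 of 45037 probe sets (0.926%) at an adjusted p below 0.05 in limma with Benjamini-Hochberg adjustment, 226 higher and 191 lower. With the brightest probe set standing for each of 18193 genes, 130 genes rose (0.715%) and 122 fell (0.671%). The median gene moved by -0.0044. Of these 252 genes, 212 had no overlap between the 5 combined and the 5 saline arrays, 106 in each direction, while 552 of all genes (3.03%) had none. The count depended on single arrays: it was 258 probe sets without saline array E, 224 without saline F and 229 without combined array C, against 417, and it was 221 when the spread was estimated from these 10 arrays alone.

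Promoter stretches of 3 genes that fell are shown first. They come from the interferon and sterol groups, which held the most called falls among the pathway lists. These genes were picked because they held a match to the element searched for their group. No other of the 5 interferon-related and 4 sterol genes that fell and had a promoter held one. RefSeq promoters (GRCm38.p6) run from 250 bases before to 50 bases after each start. The interferon-stimulated response element was searched as GAAANNGAAA on both strands and the sterol regulatory element as TCACNCCAC. Capitals mark the matches, read 5′ to 3′ on the gene's strand, so the first element appears as its reverse complement. Each stretch lies wholly upstream of the start.
Ifit1, chr19:34640750-34640829, plus strand: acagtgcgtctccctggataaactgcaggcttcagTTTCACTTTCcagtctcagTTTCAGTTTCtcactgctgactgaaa
Ifit3, chr19:34583338-34583417, plus strand: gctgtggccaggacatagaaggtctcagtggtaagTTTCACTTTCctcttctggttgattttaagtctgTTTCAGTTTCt
Hmgcs1, chr13:119690178-119690257, plus strand: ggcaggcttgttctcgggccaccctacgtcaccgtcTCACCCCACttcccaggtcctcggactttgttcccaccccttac

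Counts are of genes with a match in any of their promoters, beside the same share of all 27025 genes with a promoter. The first element was present for 2 of the 5 interferon-related genes that fell and had a promoter, with 2 matches in each. It was present for 3.99% of all genes. The sterol element was present for 1 of 4 sterol genes that fell and for 1.44% of all genes. It was also present for 1 of 11 genes with the largest rises without overlap (Pla2g12a). The full palindromic glucocorticoid response element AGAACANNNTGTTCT was present for none of these 11, the ones of the 12 with a promoter, and for 0.0111% of all genes. Its half-site TGTTCT, which is part of the full element, was present for 3 of those 11, Fam107a, 1810053B23Rik and Pla2g12a, and for 21.3% of all genes. The half-site was also present for genes that fell: Hmgcs1, 1 of 4 sterol genes, and Osgin1 and Gclm, both of the 2 Nrf2 and glutathione genes with a promoter. A match is a string of letters, not a site, and its absence concerns only this window.

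The 12 largest rises and 12 largest falls were taken among called genes whose combined and saline arrays did not overlap. Their lack of overlap is therefore set by the choice of genes. The largest rises were those of Fam107a and Sult1e1, which were both near the bottom of the scale in saline livers. Others of the 12 started higher. Per-array values below are given in the order A, B, C, E and F for saline and A, C, D, E and F for the combined group. Fam107a, which encodes an actin-associated protein and is known as a glucocorticoid-responsive gene in brain, read 1.91, 3.56, 2.18, 2.19 and 2.20 in saline and 5.98, 9.86, 8.54, 6.55 and 7.87 in the combined group. All 5 combined arrays lay above every saline array, and combined A and E were the lowest of them. The mean difference was 5.35 ± 0.53 (SE, n = 5 and 5, limma adjusted p = 4.58e-05). Sult1e1, the sulfotransferase that inactivates oestrogens, read 2.39, 2.46, 3.04, 2.74 and 2.08 in saline and 5.30, 8.26, 7.80, 5.09 and 6.54 in the combined group. Combined arrays A and E were again the lowest, still above all saline arrays. The difference was 4.06 ± 0.53 (SE, limma adjusted p = 0.000638).

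Fkbp5, the co-chaperone that lowers hormone binding by the glucocorticoid receptor and is itself a receptor target, read 5.85, 6.84, 8.54, 7.01 and 5.64 in saline. In the combined group it read 10.15, 9.94, 10.17, 8.61 and 9.64. The groups came close, because saline C (8.54) almost reached combined E (8.61). The difference was 2.92 ± 0.55 (SE), a 7.60-fold rise with a limma adjusted p of 0.0108. Plin5, a coat protein of lipid droplets that governs their lipolysis, read 7.22, 7.64, 6.96, 6.91 and 6.32 in saline and 8.78, 9.98, 9.38, 9.07 and 8.71 in the combined group. Every combined array exceeded every saline array by more than 1 log2 unit, and the difference was 2.17 ± 0.25 (SE, 4.51-fold, limma adjusted p = 0.000235).

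**Figure D1:**
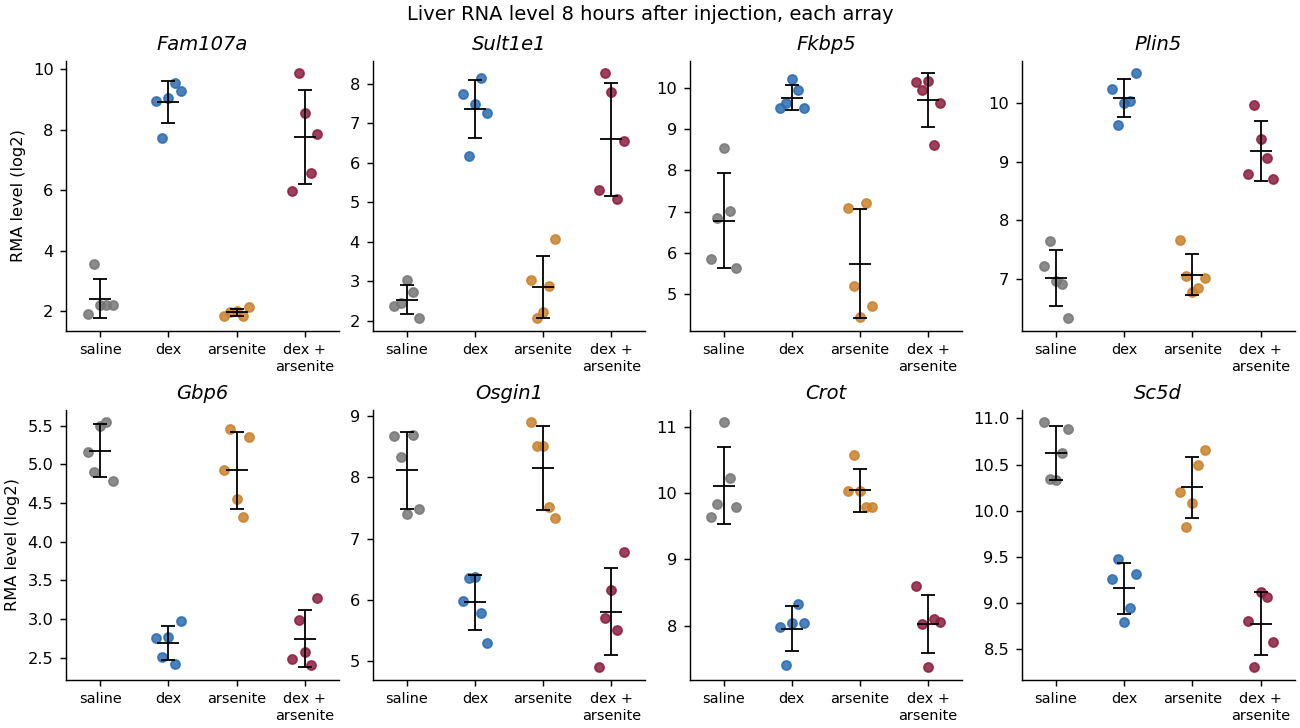
RMA level (log2, vertical axis) of 8 genes on each of the 20 injection arrays, 5 per group; points are arrays, the horizontal bar is the mean and the error bar 1 SD. In all 8 genes the dexamethasone and combined arrays lie on one side and the saline and arsenite arrays on the other, with Fam107a averaging 7.76 in the combined group and 2.41 in saline, and Gbp6 2.74 and 5.17.

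The other genes among the 12 largest rises without overlap did various jobs in the cell. Some called genes with larger rises than several of these, such as Cdkn1a (2.64) and Rrm2 (2.26), had overlapping arrays and are given below. Sult1d1, a sulfotransferase of catecholamines and other small molecules, rose by 2.30 from 8.31 ± 0.72 to 10.62 ± 0.69 (SD, n = 5 each). Aass, which opens the breakdown of lysine, rose by 1.95 from 9.03 ± 0.59 to 10.98 ± 0.31. Pigf, which takes part in making GPI anchors, averaged 5.13 in saline and 7.27 in the combined group, where combined E stood at 6.12 and the other combined arrays between 7.54 and 7.62. Atp1b1, the beta subunit of the sodium pump, rose by 1.82, and of its other probe sets 1 differed in sign without being called. Gm11827 rose by 1.85 and 1810053B23Rik by 1.77, both transcripts without an established role.

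Pla2g12a, a secreted phospholipase, rose by 1.75 from 3.89 ± 0.21 to 5.64 ± 1.03 (SD). Wfdc12, a small secreted protein of the whey acidic protein family, rose by 2.66 from 3.57 ± 0.29 to 6.23 ± 1.45. Combined E carried Wfdc12 at 3.95, just above the highest saline array at 3.91. The call of Wfdc12 (limma adjusted p = 0.0375) was the least secure of the 12: it was lost in 8 of the 10 fits without 1 array, all but those without combined A or E, where adjusted p reached 0.117. With the spread taken from the 10 arrays alone, Wfdc12 (limma adjusted p = 0.0874), Pla2g12a (0.116) and 1810053B23Rik (0.076) also missed the threshold.

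The 12 largest falls were likewise taken among called genes without overlap. Of them, 3 were of sterol enzymes (Nsdhl, Cyp51 and Hmgcs1), 2 of interferon-induced genes (Gbp6 and Ifit1) and 1 of Osgin1, a gene of the oxidative stress response. The other 6 belonged to none of these groups. Gbp6, an interferon-induced GTPase of the guanylate-binding family, read 5.15, 4.90, 5.49, 5.54 and 4.78 in saline and 2.49, 2.98, 2.58, 2.40 and 3.27 in the combined group. The 2 sets of arrays were separated by more than 1 log2 unit, and the difference was -2.43 ± 0.22 (SE, limma adjusted p = 1.92e-05). Crot, a peroxisomal enzyme that passes medium-chain acyl groups to carnitine, read 9.64, 9.83, 11.06, 10.23 and 9.79 in saline and 8.59, 8.02, 7.37, 8.11 and 8.05 in the combined group. Saline C was the highest array and no arrays overlapped. Crot fell by 2.08 (SE 0.25, limma adjusted p = 0.000352).

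Efna1, a membrane ligand of Eph receptors, fell by 1.97 from 7.62 ± 0.54 to 5.65 ± 0.37 (SD, n = 5 each). Lin7a, a scaffold protein of cell junctions, fell by 1.99 from 6.16 ± 0.43 to 4.16 ± 0.57. Car8, a carbonic anhydrase relative without enzyme activity, fell by 2.18 (limma adjusted p = 0.0238), a call lost in 5 of 10 fits without 1 array: saline A (adjusted p = 0.0532), B (0.0526) and F (0.0606), and combined A (0.0556) and D (0.0579). Without the 4 lowest-scoring arrays it was lost as well (0.0708). Nxpe2 fell by 2.19 from 5.35 ± 0.09 to 3.16 ± 0.76, and its combined arrays were spread more widely than its saline arrays. The transcript 1810008I18Rik had the largest fall among the called genes, 2.55 on the log2 scale, from 8.42 ± 0.82 to 5.87 ± 0.78 (limma adjusted p = 0.00242).

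Genes known to be induced by glucocorticoids did not rise as a block. Of 24 measured, 2 rose, Fkbp5 and Cdkn1a, none fell and 22 did not pass the test. Of all 18193 genes 0.715% rose and 0.671% fell, the shares to set beside this and the later list counts. The median difference was 0.364 against -0.0044 for all genes, with 17 members higher and 7 lower. Over all genes 8888 were higher and 9301 lower. Cdkn1a, the p21 inhibitor of the cell cycle, read 4.58, 6.91, 8.50, 5.71 and 5.09 in saline and 9.62, 9.06, 8.89, 8.27 and 8.15 in the combined group. The wide saline spread, 1.57 (SD), let saline C at 8.50 overlap 2 combined arrays. Cdkn1a rose by 2.64 (SE 0.58, limma adjusted p = 0.0319), but the call was lost in 6 of 10 fits without 1 array (saline A, E and F, combined A, C and D), with adjusted p up to 0.108. It was also lost without the 4 lowest-scoring arrays (0.102), which left Fkbp5 as the 1 riser of the list.

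Several classical targets were higher on average without passing the test. Dusp1, a phosphatase that switches off MAP kinases, read 7.72, 7.50, 6.74, 6.05 and 8.36 in saline and 7.84, 9.92, 10.13, 8.10 and 10.00 in the combined group. Saline F lay above combined A and E, and the difference of 1.93 had a limma adjusted p of 0.200. Tat, tyrosine aminotransferase, averaged 11.18 and 11.86, and Tsc22d3, the leucine zipper protein GILZ, 7.83 and 8.51. Per1, a clock component with a known receptor site, averaged 4.12 and 4.50. The metallothionein Mt2 ranged from 6.87 to 12.29 over the saline arrays, more than over the combined arrays (9.42 to 11.78).

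Among the 7 members that were lower was Igfbp1, a secreted binding protein of insulin-like growth factors. It averaged 10.83 ± 0.38 in saline and 9.30 ± 0.60 in the combined group (SD), with no overlap. The difference of -1.53 did not pass the test over the 4 groups (limma adjusted p = 0.161) and passed with the spread taken from the 10 arrays alone (0.046). None of 11 measured genes of the receptor and of hormone availability passed; their median was -0.0878, and the receptor Nr3c1 averaged 7.67 and 7.58.

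Among metabolic targets of the hormone, single genes rose. In gluconeogenesis 1 of 12 measured genes rose and none fell (median 0.319), where 0.715% of all genes rose. The riser was Slc37a4, the transporter that brings glucose-6-phosphate into the endoplasmic reticulum, which read 9.41, 9.93, 8.99, 9.14 and 9.25 in saline and 10.18, 10.73, 11.04, 10.33 and 10.52 in the combined group. Its groups did not overlap, and it rose by 1.21 (SE 0.19, limma adjusted p = 0.00273). Pck1, the enzyme that makes phosphoenolpyruvate, was lower in 4 of 5 combined arrays, at 9.14, 8.71, 8.59 and 8.89, and higher in combined E, at 10.83. Its saline arrays lay between 9.67 and 10.47. The Pck1 difference of -1.02 did not pass (limma adjusted p = 0.335) and did without combined E (-1.42, 0.0307). Gpt2, an alanine aminotransferase, passed without saline B (0.72, 0.0325).

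Amino acid breakdown and the urea cycle had 3 risers among 13 measured genes and no faller, with a median of 0.534, where 0.715% of all genes rose. Besides Aass these were Asl, which splits argininosuccinate in the urea cycle, and Tdo2, which opens tryptophan breakdown. Asl read 10.45, 10.30, 9.18, 9.12 and 9.82 in saline and 10.85, 11.18, 11.51, 11.74 and 11.04 in the combined group. No arrays overlapped, and Asl rose by 1.49 (SE 0.29, limma adjusted p = 0.0123). Tdo2 rose by 0.97 from an already high 11.76 ± 0.38 to 12.73 ± 0.14 (SD), a call (limma adjusted p = 0.032) that only the fits without saline B or combined F kept among the 10 without 1 array (up to 0.0951). Arg1, the arginase that releases urea, averaged 11.97 and 12.56 and did not pass (limma adjusted p = 0.0807). Without the 4 lowest-scoring arrays, Aass alone of this list was called, and with the spread from the 10 arrays alone Asl narrowly missed (0.0503).

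The growth hormone and IGF axis had 1 faller and no riser among 13 measured genes (median -0.272), where 0.671% of all genes fell. Ghr, the growth hormone receptor, read 11.21, 11.38, 11.08, 10.91 and 10.78 in saline and 9.53, 10.16, 10.04, 9.30 and 10.09 in the combined group. The groups did not overlap, and Ghr fell by 1.25 (SE 0.20, limma adjusted p = 0.00292). Its other probe sets differed: a dimmer one was called (-1.57, limma adjusted p = 0.0115), and a bright one moved little (-0.28, 0.748). Igf1, the growth factor it induces, averaged 11.04 and 11.19. The brightest probe set of Igfbp3, the main carrier of Igf1 in blood, did not pass (0.79, limma adjusted p = 0.275), and another did (1.33, 0.0116).

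Cholesterol synthesis was the pathway list with the lowest median, -1.57 over 15 measured genes. Of these 4 fell, none rose and 11 did not pass. Of all 18193 genes 0.671% fell, and 9301 had lower means. The 14 enzymes measured all had lower means in the combined group, and the exception was Srebf2, the transcription factor that drives it (0.25 higher, not passing). Sc5d, which forms a double bond of the sterol ring late in the pathway, read 10.96, 10.34, 10.33, 10.62 and 10.89 in saline and 8.80, 8.30, 9.12, 9.06 and 8.58 in the combined group. All combined arrays lay more than 1 log2 unit below all saline arrays, and Sc5d fell by 1.86 (SE 0.19, 3.62-fold, limma adjusted p = 4.58e-05). Its dimmer probe sets were lower without passing (-1.13, limma adjusted p = 0.511, and -0.97, 0.128). Hmgcs1, which makes the precursor of mevalonate and whose promoter stretch is printed above, read 10.88, 9.89, 11.31, 10.22 and 10.98 in saline and 7.56, 8.01, 9.03, 9.23 and 8.27 in the combined group. The groups did not overlap, with saline B the lowest of its group, and Hmgcs1 fell by 2.24 (SE 0.47, limma adjusted p = 0.0248).

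Cyp51, the sterol demethylase, fell by 2.26 from 8.07 ± 0.59 to 5.81 ± 0.56 (SD, n = 5 each, limma adjusted p = 0.0244). Nsdhl, which acts after Cyp51, fell by 2.34 from 9.49 ± 0.49 to 7.15 ± 0.74 (limma adjusted p = 0.0167), and saline B at 8.63 stood below the other saline arrays at 9.62 to 9.78. Fdft1 (squalene synthase, -1.83, limma adjusted p = 0.0614) and Dhcr7 (the last reductase, -1.52, 0.0692) fell short of the threshold. Dhcr7 passed without saline B (-1.76, 0.0308) or combined D (-1.76, 0.0369). Combined array A carried the lowest value of Nsdhl, Cyp51 and Hmgcs1. The number of fallers was 2 without the 4 lowest-scoring arrays, 1 to 6 in fits without 1 array and up to 12 over all alternatives; 14 members stayed lower without the 4 arrays too. Without 1 array, Sc5d was called in 10 of 10 fits, Nsdhl in 8 (not without saline F, adjusted p = 0.0521, or combined C, 0.0591), and Cyp51 and Hmgcs1 in 4 each. Cyp51 was lost without saline A, C, E or F or combined A or C (up to 0.0763), and Hmgcs1 without saline A, C or F or combined A, C or F (up to 0.0797).

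Insig1 and Insig2 are membrane proteins that hold back sterol and lipid synthesis. Insig2 read 9.52, 10.02, 9.85, 9.73 and 8.97 in saline and 11.18, 11.11, 11.18, 10.63 and 10.42 in the combined group. It was the only riser among 20 measured lipogenesis genes, by 1.29 (SE 0.22, limma adjusted p = 0.00461), with no overlap. Insig1 averaged 9.43 and 7.75 with no overlap and did not pass (limma adjusted p = 0.134). Lpin1, a phosphatidate phosphatase that is also a transcriptional coactivator, averaged 9.29 and 10.86 (0.0743). It passed without saline B (difference 1.99, 0.00495) or without combined E (1.83, 0.0267). Among 22 genes of fatty acid oxidation, Plin5 rose and none fell, and Fabp1, the liver fatty acid carrier, averaged 12.94 and 12.22 without passing (0.0656). These counts rest on the brightest probe set of each gene: another probe set passed for Fabp1 (-0.63, limma adjusted p = 0.0425) and for Ppara, the receptor that drives the list (-1.11, 0.0263). The brightest of Ppara (-1.05, 0.23) passed without combined A (-1.39, 0.029).

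**Figure D2:**
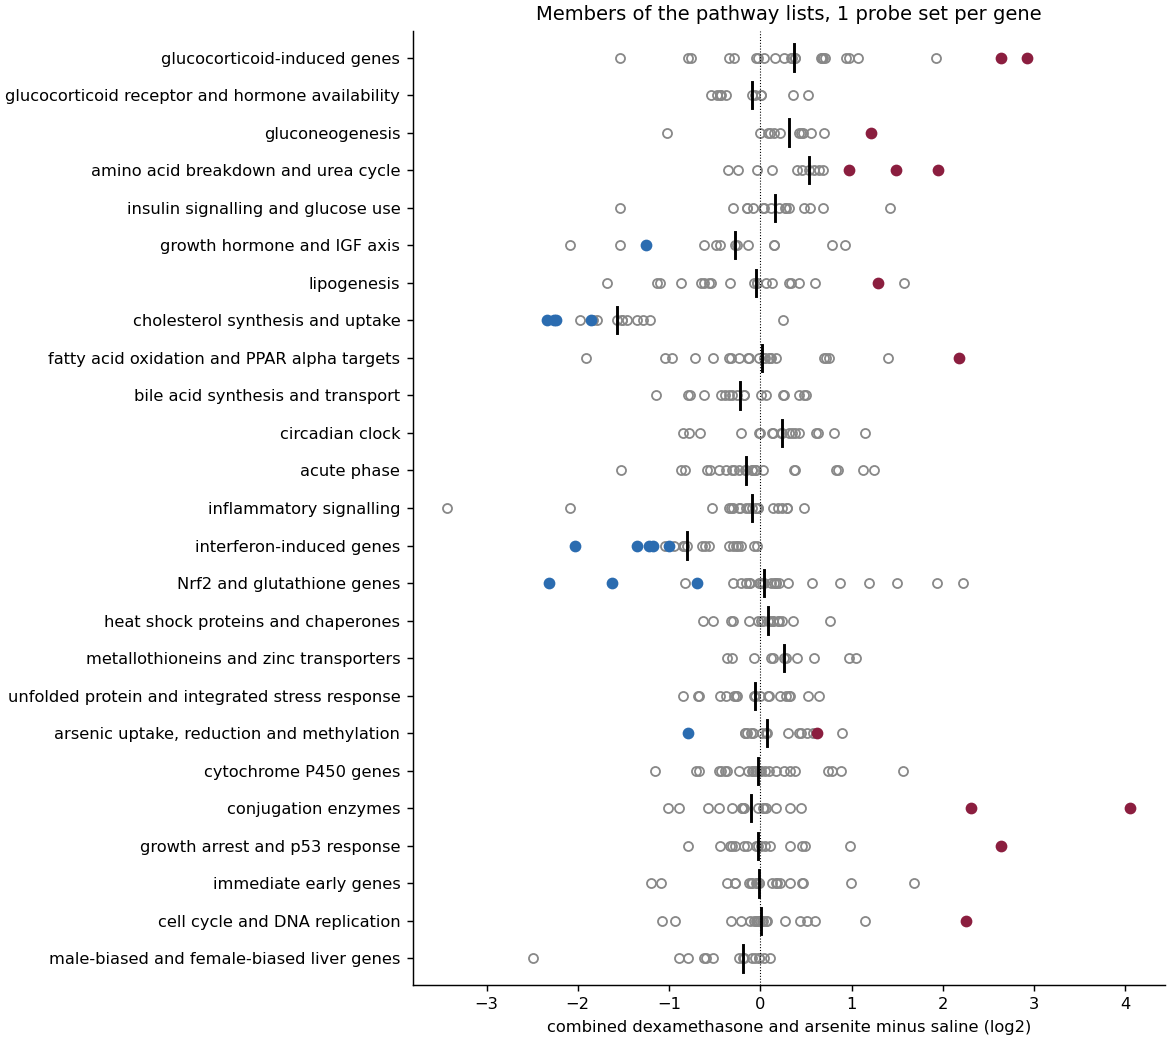
Difference between the combined and saline means (log2, horizontal axis) for each measured member of 25 pathway lists, one row per list; filled red points rose and filled blue points fell at an adjusted p below 0.05, open points did not pass, and the black bar is the list's median. Cholesterol synthesis (median -1.57) and the interferon-induced genes (median -0.798) lie furthest to the left, and the other medians run from -0.272 to 0.534.

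Interferon-induced genes were lower throughout: 5 of 21 measured fell, none rose, 16 did not pass, and all 21 means were below those of saline (median -0.798). Of all 18193 genes 0.671% fell, and 9301 had means below those of saline. Ifit1, a sensor that binds foreign RNA caps and whose promoter stretch with 2 response elements is printed above, read 5.28, 5.69, 5.63, 5.30 and 5.43 in saline and 2.43, 2.45, 2.94, 5.17 and 4.18 in the combined group. Combined E came close to the lowest saline array, and the other 4 combined arrays lay more than 1 log2 unit below it. Ifit1 fell by 2.03 (SE 0.39, limma adjusted p = 0.0119). Ifit3, its partner with the same element, fell by 1.36 from 5.48 ± 0.22 to 4.12 ± 0.74 (SD, limma adjusted p = 0.032), and combined E was its highest combined array at 5.10.

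Irf9, the DNA-binding subunit that type I interferon signalling uses, read 5.21, 5.41, 5.98, 5.46 and 5.56 in saline and 4.21, 3.87, 3.80, 4.62 and 5.05 in the combined group. No arrays overlapped, and Irf9 fell by 1.22 (SE 0.21, limma adjusted p = 0.00679). Irf7, a factor that amplifies interferon production, fell by 1.00 (limma adjusted p = 0.046), and Psmb9, a subunit of the immunoproteasome, by 1.17 (0.0333). Stat2, Irf1 and Cxcl9 averaged 4.81, 6.61 and 6.32 in saline and 3.86, 5.76 and 5.28 in the combined group without passing, and Stat2 passed without saline B (-1.15, 0.0361). Without the 4 lowest-scoring arrays 4 fell and all 21 means stayed lower. None was called with the spread taken from the 10 arrays alone, and 2 to 6 were called in fits without 1 array. In such fits 3 genes were each called in 3 of 10: Ifit3 without saline C or combined E or F (otherwise up to 0.104), Psmb9 without saline B or C or combined A (0.103), and Irf7 without saline B or C or combined E (0.138).

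**Figure D3:**
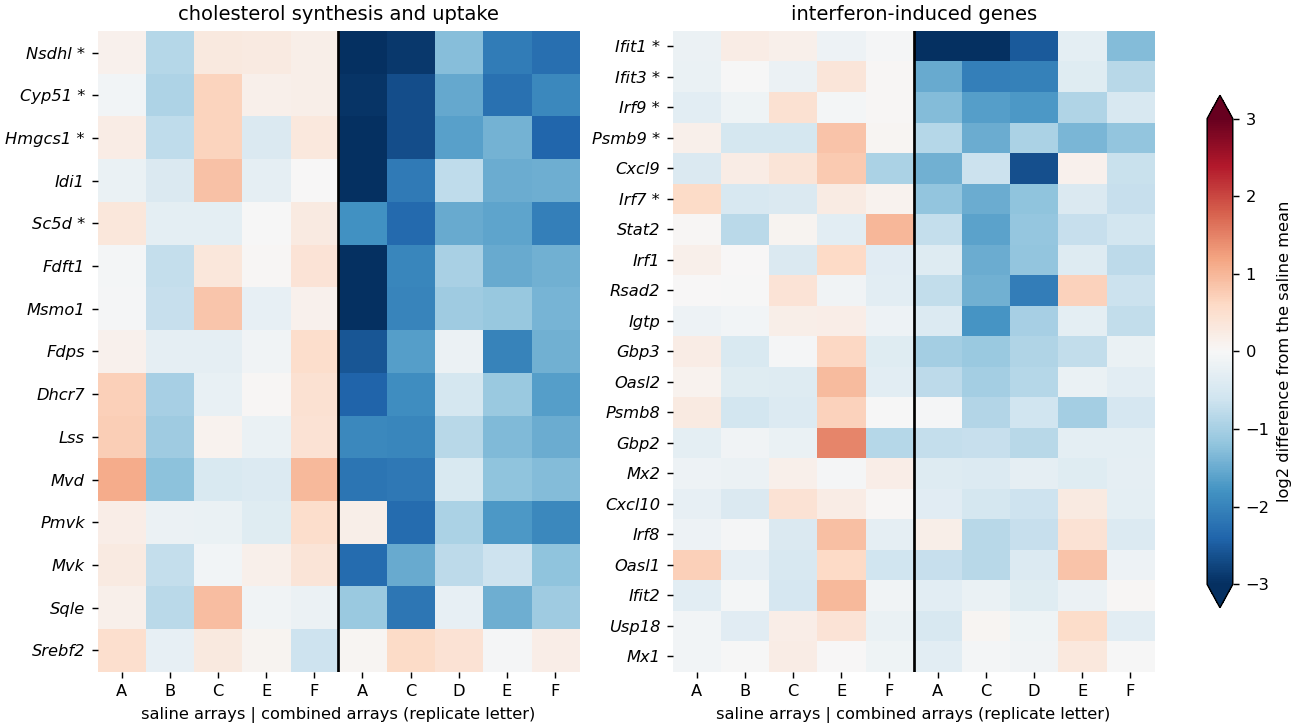
Difference of each array from the saline mean (log2, colour scale, clipped at 3 in each direction) for the members of the cholesterol list (left) and the interferon list (right); rows are genes, columns the saline arrays and, right of the black line, the combined arrays by replicate letter, and an asterisk marks an adjusted p below 0.05. Combined arrays are mostly blue in both panels, with combined A deepest in the sterol genes and combined E palest in Ifit1 (5.17) and Ifit3 (5.10).

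Markers of immune cells were mostly lower too, without passing, where 9301 of all 18193 genes were lower. In whole liver, fewer cells of a type and less RNA per cell cannot be told apart. Of 13 Kupffer cell and macrophage markers 10 were lower (median -0.289) and none passed. Over the alternatives this median ran from -0.512 to -0.00035. Their summed linear level was 1300 to 6510 in saline and 1050 to 3100 in the combined group. The middle array of each group was nearly the same, at 2100 in saline and 2050 in the combined group. Of 11 neutrophil markers 9 were lower (median -0.405, from -1.7 to -0.0185 over the alternatives). Their sum was 90.9 to 2310 in saline (median 106) and 56.3 to 681 in the combined group (median 66.8). The highest sum in each group came from arrays with much S100a8, a granulocyte protein, at 9.58 in saline E and 7.49 in combined A. Of 9 MHC class II markers 6 were lower (median -0.348). The part of these cells in the interferon result was not tested.

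Inflammatory genes themselves were not called. None of 21 genes of inflammatory signalling passed (median -0.0854) and none of 23 acute phase genes (median -0.159), although Saa4, a serum amyloid A protein, passed without combined E (1.36, limma adjusted p = 0.0409). Cxcl1, a chemokine that draws neutrophils, read 5.66, 10.02, 10.29, 8.00 and 7.71 in saline and 4.70, 4.36, 5.72, 3.94 and 5.78 in the combined group. Saline A overlapped the combined arrays and the other saline arrays did not. The difference of -3.43 ± 1.00 (SE), 10.8-fold on average, had a limma adjusted p of 0.139. Socs3, the feedback inhibitor of cytokine receptors, was spread from 4.95 to 7.82 in saline and from 2.63 to 5.27 in the combined group (limma adjusted p = 0.414).

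Few genes of the stress lists linked to arsenite were called. Among 25 Nrf2 and glutathione genes none rose and 3 fell, while the median was 0.0448 and 0.671% of all genes fell. Without combined array A, 3 rose, the glutathione transferases Gstm2 (1.66, limma adjusted p = 0.0029, against 0.206 with all arrays) and Gstm3 (2.83, 0.0031, against 0.295), close paralogs, and Ugdh, which makes UDP-glucuronate (1.10, 0.041). Fits without 1 array left 2 to 4 fallers, and without combined E the transferase Gstm4 fell too (-1.13, 0.0259). Osgin1, a growth inhibitor induced by oxidative stress, read 8.68, 8.34, 7.40, 8.68 and 7.49 in saline and 4.89, 5.70, 6.16, 5.51 and 6.78 in the combined group. No arrays overlapped, and Osgin1 fell by 2.31 (SE 0.36, 4.96-fold, limma adjusted p = 0.00273). Gclc, the catalytic subunit of the enzyme that limits glutathione synthesis, read 9.19, 9.20, 9.74, 8.90 and 8.76 in saline and 8.32, 7.03, 7.48, 7.67 and 7.17 in the combined group. It fell by 1.62 (SE 0.27, limma adjusted p = 0.00385) with no overlap.

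Gclm, the regulatory subunit of the same enzyme, fell by 0.69 (limma adjusted p = 0.043), and among fits without 1 array it was called in 3 of 10, those without saline B or combined A or E (otherwise up to 0.132). Without the 4 lowest-scoring arrays Gclm was lost (0.0551) and Gstm4 gained (-1.10, 0.046), so that 3 members again fell. Hmox1, haem oxygenase and a known sentinel of arsenite exposure, averaged 4.73 ± 0.59 and 4.44 ± 0.63 (SD), an unresolved difference of -0.30 (limma adjusted p = 0.870). Gsta2, a glutathione transferase, averaged 3.49 and 5.72 and did not pass (0.310). None of 17 heat shock genes passed (median 0.0894), with Hspb1 at 6.87 ± 0.20 and 7.64 ± 1.06, and none of 11 metallothionein and zinc genes (median 0.264). The transporter Slc30a10 passed without combined E (0.95, limma adjusted p = 0.00301) and without the 4 lowest-scoring arrays (0.91, 0.012). None of 20 genes of the unfolded protein response passed (median -0.0607).

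Genes that carry and metabolise arsenic had 1 riser and 1 faller among 16 measured, where 0.715% of all genes rose and 0.671% fell. Aqp9, the aquaglyceroporin through which arsenite enters hepatocytes, read 10.19, 10.14, 10.39, 10.28 and 10.17 in saline and 9.21, 9.65, 9.58, 9.08 and 9.71 in the combined group. The groups did not overlap, and Aqp9 fell by 0.79 (SE 0.12, limma adjusted p = 0.00207). Ahcy, which clears the by-product of methylation, rose by 0.62 from 11.08 ± 0.31 to 11.70 ± 0.06 (SD, limma adjusted p = 0.0342). The Ahcy call held in 2 of 10 fits without 1 array, those without saline A or B (up to 0.112), and was lost without the 4 lowest-scoring arrays (0.15). As3mt, the arsenic methyltransferase, averaged 6.95 and 7.26 (0.758).

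Other lists held few called genes, where 0.715% of all genes rose and 0.671% fell. Rrm2, the ribonucleotide reductase subunit that supplies DNA synthesis, read 5.00, 6.04, 5.14, 4.78 and 4.49 in saline and 5.85, 8.10, 7.94, 7.46 and 7.37 in the combined group. Combined A lay below saline B. Rrm2 was the only gene of 20 in the cell cycle list that passed, up by 2.26 (SE 0.39, limma adjusted p = 0.00604). In the conjugation list only Sult1e1 and Sult1d1 of 18 passed. None passed among 26 cytochrome P450 genes (median -0.0292), 18 clock genes (median 0.235), 18 bile acid genes, 16 insulin signalling genes, 21 immediate early genes or 15 sex-biased liver genes. By a probe set other than the brightest, Cyp2j5, an arachidonic acid epoxygenase, passed (-1.13, limma adjusted p = 0.0127; brightest -0.46, 0.146), as did Slco1b2, a bile acid uptake transporter (-0.85, 0.0335; brightest -0.77, 0.112). Without combined E the bile acid enzyme Cyp27a1 passed (0.65, 0.00673), as did Ppp1r3c, a glycogen-targeting subunit of protein phosphatase (1.96, 0.0266), and the immediate early factor Klf10 (2.30, 0.0464). Cyp27a1 (0.65, 0.0279) and Ppp1r3c (1.94, 0.0452) also passed without the 4 lowest-scoring arrays. Of the clock genes, Cry1 passed without saline A (1.38, 0.0468) or combined A (1.43, 0.0167) and Ciart without combined F (0.99, 0.0143). All 12 cell type lists had no called member; Lyve1, a marker of sinusoidal endothelium, averaged 4.14 and 6.16 with no overlap (limma adjusted p = 0.179), and Cela1, an elastase, 8.15 and 7.02 (0.180).

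Against dexamethasone alone, which shares no animals with the saline group, no probe set passed the threshold (0%), the smallest adjusted p being 0.919, and 1744 passed an unadjusted p below 0.05 where 2252 are expected by chance. Among the 24 genes with the largest rises and falls without overlap, the 95% interval of the combined minus dexamethasone difference included 0 in 21. It reached from 0.44 to 1.26 to either side of the difference. These genes were chosen by their combined arrays, which also enter this difference, so the intervals are given as values only. With 5 arrays a group, any difference within a gene's interval remains possible. The interval excluded 0 for 3: Fam107a (-1.15, from -2.26 to -0.04), Plin5 (-0.90, from -1.43 to -0.38) and Nsdhl (-1.07, from -2.04 to -0.09). Plin5 read 10.24, 9.64, 10.01, 10.04 and 10.51 on dexamethasone arrays A, C, D, E and F. Combined array C alone reached that range.

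**Figure D4:**
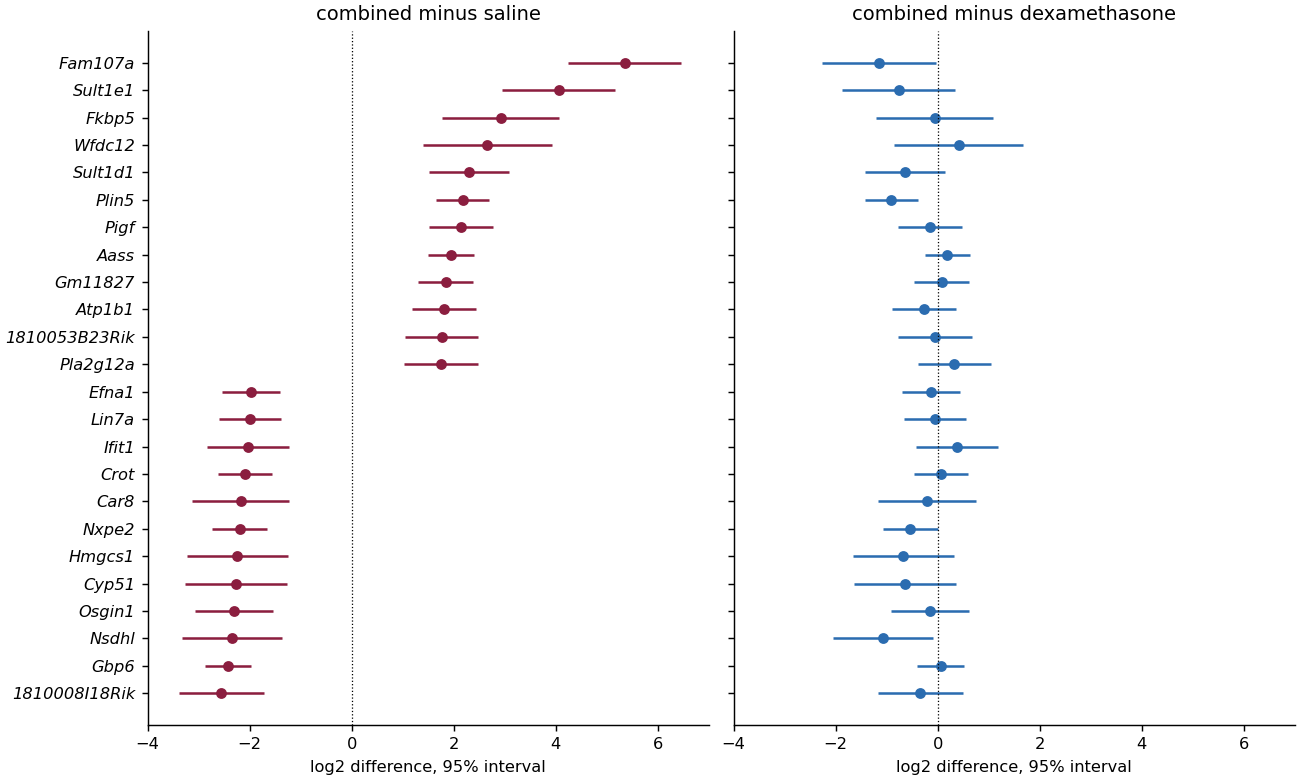
Difference of the combined mean from the saline mean (left) and from the dexamethasone mean (right), log2. Genes are the 12 largest rises and 12 largest falls against saline among called genes whose arrays did not overlap. Points are differences and lines their 95% intervals from limma. The left panel has no interval across 0, by the choice of genes, and in the right panel the intervals of 21 genes cross 0.

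The smallest unadjusted p-values against dexamethasone belonged to Galc, a lysosomal enzyme that degrades galactosylceramide, and to Ppfibp1, Ssna1, Tbc1d31 and Ppil6. Galc read 3.62, 3.48, 3.88, 4.35 and 4.56 with dexamethasone alone and between 2.58 (array A) and 3.43 (array D) in the combined group, with no overlap. Its saline mean was 2.41, and the difference from dexamethasone was -1.05 (limma adjusted p = 0.919). Tbc1d31, a protein of the centrosome, averaged 4.16 in saline, 5.93 with dexamethasone and 4.43 with both (difference from dexamethasone -1.50, adjusted p = 0.919). The other probe sets moved less against dexamethasone, at -0.37 and -0.03 for Galc and at 0.13 and -0.28 for Tbc1d31. With the spread estimated over all 59 arrays 16 probe sets passed, all lower in the combined group, among them Galc (limma adjusted p = 0.00136), Tbc1d31 (0.000396), Ppfibp1 (0.00216) and Ppil6 (0.000396).

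The interaction, which asks whether the combined effect departs from the sum of the separate effects, passed for no probe set (0%), with 1560 at an unadjusted p below 0.05 and a smallest adjusted p of 1. The smallest p-values were those of Cenpm, Zmynd10, Galc, Tbc1d31 and Ppfia2. Cenpm, a kinetochore protein, averaged 3.69 ± 0.30 in saline, 3.06 ± 0.11 with dexamethasone, 3.03 ± 0.10 with arsenite and 3.15 ± 0.12 with both (SD), so each agent alone and both together gave a similar low level. Its interaction was 0.75 (95% interval 0.42 to 1.08, limma adjusted p = 1). All 5 averaged between 1.90 and 4.16 in saline.

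Against arsenite alone 397 probe sets passed (0.881%), 261 higher and 136 lower. The 5 largest rises were Fam107a (5.80, from 1.96 to 7.76), Fkbp5 (3.97, from 5.73 to 9.70), Sult1e1 (3.74), Cdkn1a (3.39) and Lpin1 (3.15). The 5 largest falls were Osgin1 (-2.35), Gbp6 (-2.18), 1810008I18Rik (-2.10), Crot (-2.01) and Lin7a (-1.86). Lpin1 stood lowest with arsenite alone, at 7.71 ± 0.58 (SD), against 9.29 ± 1.03 in saline, and Igfbp1 at 8.68 ± 0.96 against 10.83 ± 0.38. These values share the combined arrays with the comparison with saline. The count was 119 with the spread from these 2 groups alone, and 219 without combined array C.

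The single agents, set beside the combined group, share its saline arrays and so are given as values only. Dexamethasone against saline had 782 probe sets past the threshold (1.74%), and arsenite against saline had none (0%), with 1414 at an unadjusted p below 0.05. The median of the cholesterol list was -1.17 with dexamethasone, -0.733 with arsenite and -1.57 with both; all 15 of its members were lower with arsenite and none passed. Hmgcs1 averaged 10.66 in saline, 10.02 with arsenite, 9.09 with dexamethasone and 8.42 with both. Sc5d averaged 10.63, 10.25, 9.16 and 8.77 in the same order, each group's SD lying between 0.28 and 0.34. The median of the interferon list was -0.831 with dexamethasone, -0.137 with arsenite and -0.798 with both. Ifit1 averaged 5.47 in saline, 4.90 with arsenite, 3.05 with dexamethasone and 3.43 with both. The median of the heat shock list was 0.0942 with dexamethasone, 0.15 with arsenite and 0.0894 with both. All 17 of its members were higher with arsenite and none passed, where the median of all genes was -0.0046. With both agents 11 were higher and 6 lower.

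The 10 arrays of dexamethasone alone and arsenite alone are no part of the combined and saline means, although they helped set the spread by which the 417 were called. They allow the direction of these probe sets to be read on other animals, with dexamethasone set against arsenite. Arsenite is the baseline there, although it was part of the combined injection. The contrast therefore does not repeat the combined effect. This comparison was added after the data were seen. Dexamethasone against arsenite had 703 of 45037 probe sets past the threshold (1.56%), and 44.3% of all probe sets were higher with dexamethasone. Of the 226 probe sets that rose with the combined injection, 225 were higher and 149 passed; of the 191 that fell, 189 were lower and 97 passed. Their median differences were 1.01 and -0.74. With each pair of groups fitted alone, so that no array entered both fits, 221 probe sets were called against saline. Of the 114 that rose, 114 were higher with dexamethasone than with arsenite and 74 passed, and of the 107 that fell, 105 were lower and 41 passed, where 1.93% of all probe sets passed.

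**Figure D5:**
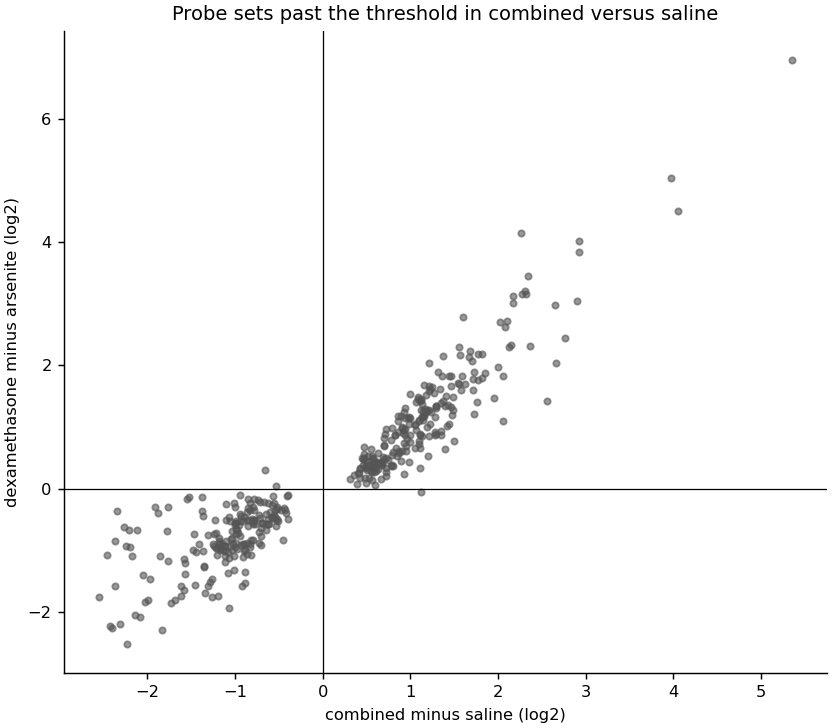
Each point is one of the 417 probe sets past the threshold in the combined against saline comparison, with that difference on the horizontal axis and the dexamethasone minus arsenite difference, from the 10 other injection arrays, on the vertical axis (both log2). Nearly all points lie in the upper right (225 of 226 risers) or lower left (189 of 191 fallers).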

How the data were processed

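The authors deposited one log2 expression value per probe set and array, made with RMA per the submitters' processing notes; its software and version: not given in the sources used here. Differences between groups were taken within a probe set, except for the summed marker levels, which add several. The 64 control probe sets were left out. Probe sets were named from the platform annotation: 34945 had 1 symbol, 932 several and the rest none. The brightest probe set, by its mean on the 59 arrays, stood for a gene. Group means of the 20 injection arrays were fitted in 1 model (limma 3.58.1, R 4.3.3) with Benjamini-Hochberg adjustment over 45037 probe sets, threshold 0.05; the fit was tested on simulated data. Named genes were the 12 largest rises and 12 largest falls past the threshold without overlap, up to 4 members of each list with the smallest p and those a role required, and 5 in each direction or the 5 smallest p for the other comparisons; genes whose call depended on 1 array, on the 4 lowest-scoring arrays or on the probe set were named after their values were seen. Members and lists were chosen with earlier results of these data known. The number of arrays, 5 per group, limits the precision. Alternatives changed the arrays in the fit, the scaling, the filter, the variance model and the replicate block.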

Additional observations from a re-analysis of the deposited data

Results flagged for a closer look

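In 121 named genes the 5 saline and the 5 combined arrays were each searched for 1 array far from the other 4, and 15 of 242 groups held one, where chance alone flags about 1 in 20 groups, or 12.1. In the saline group, array B stood apart at 3.56 for Fam107a (others 1.91 to 2.20), at 8.63 for Nsdhl (others 9.62 to 9.78) and at 7.41 for Foxo1 (others 6.56 to 6.68). Saline A stood at 9.67 for Pck1 (others 10.34 to 10.47), saline F at 4.84 for Pigf (others 5.17 to 5.26), and saline C at 7.17 for Nr3c1 (others 7.72 to 7.92) and at 6.86 for Jun, an immediate early gene (others 3.61 to 4.54). In the combined group, array E stood at 6.12 for Pigf (others 7.54 to 7.62), at 10.83 for Pck1 (others 8.59 to 9.14), at 13.98 for Alb (others 13.62 to 13.71), at 5.92 for Slc30a10 (others 7.42 to 7.97), at 9.47 for Saa4 (others 11.65 to 12.50) and at 9.05 for Cyp2j5 (others 9.75 to 9.83). Combined A stood at 11.53 for Fabp1 (others 12.30 to 12.45) and at 2.68 for Sult1c2 (others 3.04 to 3.17).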

How the results depend on the processing

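Probe sets past the threshold between combined and saline numbered 417 and became 221 with only the groups compared (196 shared), 916 with all 59 arrays in 1 fit and 668 with the 4 lowest-scoring arrays as a covariate; without 1 array they ran from 224 to 561. Combined against arsenite (397) became 119, 846 and 620 in the same order and ran from 219 to 487. Combined against dexamethasone (0) became 16 with all 59 arrays and ran from 0 to 2, dexamethasone against saline (782) became 1371 with all 59 arrays and ran from 448 to 823, and arsenite against saline (0) ran from 0 to 1. The interaction stayed at 0 under every alternative run. The replicate block gave 300 probe sets (254 shared). The labels do not say that letters pair arrays, and letters were treated as names. Same-letter deviations of the saline and combined groups correlated between -0.279 and 0.035, and none of 4 combined arrays correlated best with its own letter. Over all pairs of groups the median correlation was 0.0213 for the same letter and -0.0235 for other letters. So few pairs cannot decide whether arrays of a letter belong together. Of 42 called genes named here 23 kept the call under every alternative and 19 lost it in at least 1; of 79 uncalled, 34 were called in at least 1. No called gene changed sign; 5 uncalled did (Mt2, Nr3c1, Cyp7a1, Alb and Tbc1d31). Rescaling moved the median of all probe sets from -0.0084 to at most 0.0122.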
